A study of Mus musculus with 19 samples.

Results

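The integrins, the laminins and their basement membrane partners nidogen and perlecan were followed here across cell fractions of mouse hindlimb muscle. The members were all genes named as an integrin alpha or beta subunit (18 and 8 genes), as a laminin alpha, beta or gamma chain (11 genes), or as Nid1, Nid2 or Hspg2, which made 40 of the 23846 genes listed. All 40 had numeric values in every library. A total of 38 passed the filter on low values, at least 1 FPKM (fragments counted on a gene, divided by its length in kilobases and by the size of the library) in at least 3 of 19 libraries. Itgad, a leukocyte alpha subunit, reached at most 0.445 FPKM, and Lama1, the early embryonic laminin alpha chain, at most 0.0199 FPKM, and neither was tested.

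Poly(A) RNA was sequenced in 19 libraries of 5 groups from C57BL/6J mice. All groups shared 1 treatment given from 8 weeks of age, tamoxifen at 2.5 mg on each of 5 days and then 10 days of washout, and no untreated group was part of the comparison. LinNegSca1Pos (3 libraries) was the lineage-negative, Sca1-positive fraction, which the labels call mesenchymal progenitors. LinNegSca1Neg (4 libraries) was the lineage-negative, Sca1-negative remainder. LinPos (4 libraries) was the lineage-positive fraction of endothelial and blood-derived cells, and LinNeg (4 libraries) the lineage-negative fraction before the Sca1 gate. Whole (4 libraries) is titled a suspension of mononuclear cells, but its deposited columns are named whole muscle, and which of these was sequenced is not settled by the labels. Whether replicates are separate animals is not stated, and the p-values below therefore reflect the spread among libraries alone, which may be technical.

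The fractions were checked against marker genes. Summed over 7 mesenchymal progenitor markers, the level was 10689.8 to 14213 FPKM in LinNegSca1Pos, 1821 to 5371 in LinNegSca1Neg, 401 to 648 in LinPos and 576 to 634 in Whole. LinPos held 598 to 1789 FPKM over 8 endothelial markers and 3188 to 5509.7 over the 7 leukocyte markers found of 8, against 60.4 to 91.3 and 14.8 to 43.8 in LinNeg. These lists include Pecam1 and Ptprc, which were also listed as genes of the gate, so this check is in part set by the sort. Markers of other muscle cell types were lower in LinNegSca1Pos than in LinNegSca1Neg. In LinNegSca1Pos 6 satellite cell markers summed to 1.51 to 3.44 FPKM, 6 Schwann cell markers to 222 to 472, 5 tenocyte markers to 168 to 550.4 and 7 markers of pericytes and smooth muscle to 27.3 to 99.9. The corresponding sums in LinNegSca1Neg were 433 to 626, 2731 to 3983, 2235 to 3699 and 1725 to 2561 FPKM. The sum of 7 myofibre genes was 54.4 to 174 FPKM in LinPos and 1309.9 to 9350.5 in LinNeg, against 63968 to 81390.3 in Whole. None of these lists had a gene at the lowest listed value in all libraries of the groups named. In bulk RNA, fewer cells of a type and less RNA per cell cannot be told apart. The first principal component of the variation within groups (45.9% of it) divided 3 groups, LinPos, LinNeg and LinNegSca1Neg, into replicates 1 and 2 (set A) and replicates 3 and 4 (set B). The labels name no batch. Sequencing depth is unknown, but 10737 to 12517 genes per library reached 1 FPKM, and the value of 1 fragment, read from low genes, varied up to 4.92 times between libraries. It was 4.92 times the lowest in LinNegSca1Pos replicate 3 and Whole replicate 3, and at most 2.38 times in the others.

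Integrins are cell surface receptors made of 1 alpha and 1 beta subunit, and the pair sets the ligand: laminins, collagens, proteins with an arginine-glycine-aspartate (RGD) motif, or counter-receptors on other cells. Laminins are cross-shaped trimers of an alpha, a beta and a gamma chain that polymerise on the cell surface, and nidogens and perlecan link that sheet to the collagen IV network of the basement membrane. Every muscle fibre, capillary and Schwann cell is wrapped in such a sheet. Loss of the laminin alpha 2 chain or of integrin alpha 7, its receptor on muscle, causes muscular dystrophy.

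RefSeq promoter windows (GRCm38.p6, 250 bases before to 50 after a gene's start) were matched by symbol to 25 of the 40 members. Itga6, Itga7, Itgad, Itgae, Itgal, Itgb2, Itgb3, Itgb4, Lama1, Lama3, Lama4, Lamc1, Lamc3 and Nid2 were among those with no entry used here. Shown are 2 leukocyte integrin genes that were high in LinPos (Itgam, Itgax), 3 genes that were high in the lineage-negative fractions (Nid1, Lama2, Itga11) and 1 that was high in LinNegSca1Neg (Itga8). Capitals mark GAGGAA, the purine core bound by PU.1, a transcription factor of myeloid cells, and GGGCGG, the GC box bound by Sp1, each in either direction (TTCCTC and CCGCCC).
Itgam (chr7:128062390-128062689, plus strand): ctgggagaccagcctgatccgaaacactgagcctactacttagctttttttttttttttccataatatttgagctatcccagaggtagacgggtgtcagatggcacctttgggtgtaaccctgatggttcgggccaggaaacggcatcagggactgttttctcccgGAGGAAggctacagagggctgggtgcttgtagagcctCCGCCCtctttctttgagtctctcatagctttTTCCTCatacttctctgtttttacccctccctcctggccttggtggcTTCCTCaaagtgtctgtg
Itgax (chr7:128129300-128129599, plus strand): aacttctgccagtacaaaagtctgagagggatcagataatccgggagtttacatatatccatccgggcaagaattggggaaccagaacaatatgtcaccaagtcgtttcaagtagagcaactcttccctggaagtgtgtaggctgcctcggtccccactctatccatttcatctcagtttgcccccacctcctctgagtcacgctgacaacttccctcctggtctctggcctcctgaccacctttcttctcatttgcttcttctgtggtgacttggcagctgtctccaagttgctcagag
Nid1 (chr13:13437352-13437651, plus strand): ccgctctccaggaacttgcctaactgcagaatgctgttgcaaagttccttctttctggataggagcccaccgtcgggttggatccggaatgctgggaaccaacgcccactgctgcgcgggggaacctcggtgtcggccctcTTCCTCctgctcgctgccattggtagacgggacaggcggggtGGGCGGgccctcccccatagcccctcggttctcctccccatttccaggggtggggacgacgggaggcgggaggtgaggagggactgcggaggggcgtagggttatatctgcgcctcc
Lama2 (chr10:27616893-27617192, minus strand): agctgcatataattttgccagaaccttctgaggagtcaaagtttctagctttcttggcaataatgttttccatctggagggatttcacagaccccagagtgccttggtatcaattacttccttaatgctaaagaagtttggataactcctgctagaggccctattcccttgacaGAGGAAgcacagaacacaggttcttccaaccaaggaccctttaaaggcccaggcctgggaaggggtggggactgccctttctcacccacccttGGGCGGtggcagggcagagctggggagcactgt
Itga11 (chr9:62677605-62677904, plus strand): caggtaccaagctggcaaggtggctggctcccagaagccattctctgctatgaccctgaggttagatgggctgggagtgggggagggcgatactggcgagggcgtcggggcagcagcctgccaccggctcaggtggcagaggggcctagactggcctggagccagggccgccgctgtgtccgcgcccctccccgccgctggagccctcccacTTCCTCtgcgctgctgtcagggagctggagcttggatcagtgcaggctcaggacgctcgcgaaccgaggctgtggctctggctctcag
Itga8 (chr2:12301895-12302194, minus strand): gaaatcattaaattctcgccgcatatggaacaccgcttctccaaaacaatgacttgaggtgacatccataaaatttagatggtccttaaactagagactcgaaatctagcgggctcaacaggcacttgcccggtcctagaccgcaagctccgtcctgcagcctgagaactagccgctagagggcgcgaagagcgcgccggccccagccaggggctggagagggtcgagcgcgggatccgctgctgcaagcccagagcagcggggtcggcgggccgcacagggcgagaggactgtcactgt
GAGGAA was found on either strand in 15 of the 28 windows of these members (53.6%), against 28.3% of 32851 mouse windows of the same length. GGGCGG was found in 14 of the 28 (50%), against 35.7% of all windows. No matches of the pair overlapped. Itgam held GAGGAA 3 times and GGGCGG once, and Itgax held neither. Nid1 and Lama2 held each motif once, Itga11 held GAGGAA once and Itga8 neither. These matches describe the letters in these windows and are not shown to be bound sites.

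By group mean, 12 of the 38 tested members were highest in LinNegSca1Pos, 10 in LinNegSca1Neg, 9 in LinPos, 6 in LinNeg and 1, Itgb6, in Whole. Itgb6 was tested through its Whole values alone. Whole held the lowest mean of 18, and over all tested genes the median log2 difference from Whole was 0.45 in LinPos and 0.43 in LinNeg. The 4 tested leukocyte alpha subunits, Itgb2 and Itgb7 were highest in LinPos. Of these, Itgae, Itgal and Itgax reached 1 FPKM only in LinPos and were tested through that group alone. Nid2, Hspg2, the 3 laminin beta chains and Lama4 were highest in LinNegSca1Pos, and Nid1, Lama2 and Lamc1 in LinNeg. Lamb3 passed the filter on low values through LinNegSca1Pos. Itga7, Itga8 and the laminin chains Lama3, Lama5 and Lamc3 were highest in LinNegSca1Neg. Of the matrix genes named, only Hspg2, Lamb1 and Lamb3 did not overlap with the group of the next highest mean. Itga8 did not overlap either, but Itgb7 and Itga7 did. Itga7 stood at 15.6 to 61.6 FPKM in LinNegSca1Neg and at 14.8 to 20.5 in Whole. Means of LinNeg lay between those of its Sca1 fractions for 32 of the 38. These orders are descriptions, and the same counts were not made over all tested genes, so they show no trait particular to the members. The heat map of all members by library shows them side by side.

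**Figure D1:**
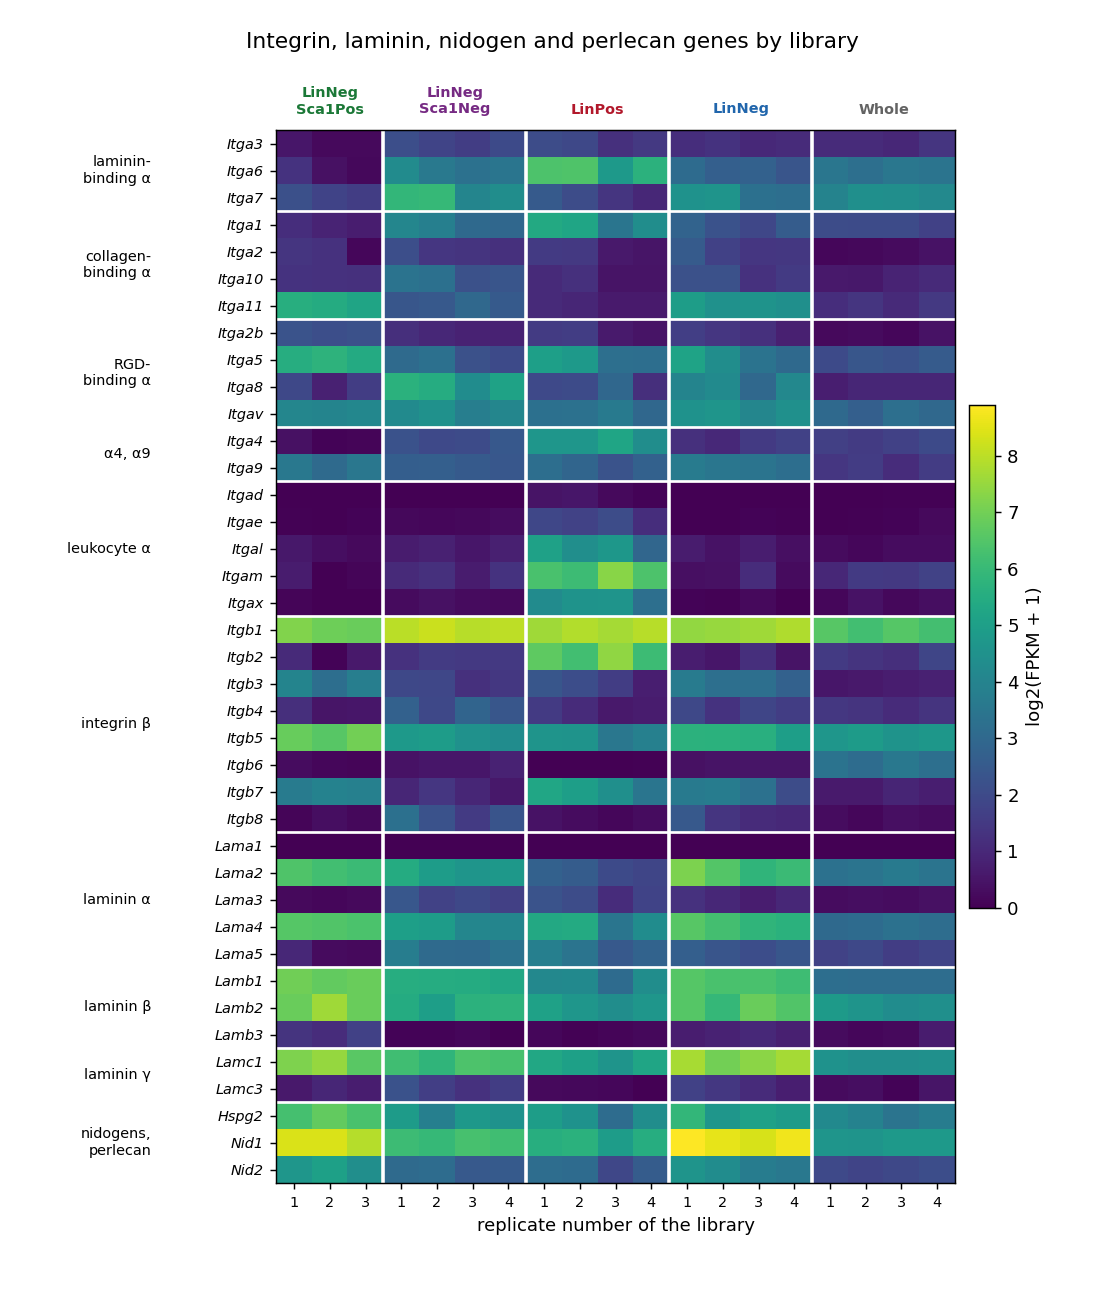
Level of 39 member genes in each of 19 libraries, as log2(FPKM + 1) from dark (low) to bright (high), with genes in rows by role and libraries in columns by group and replicate number. Of the leukocyte alpha rows Itgam is bright in the 4 LinPos columns, at 67.0 to 159 FPKM. Itgae and Itgad are dark there, at no more than 3.19 and 0.445 FPKM. The Nid1 row is brightest in LinNeg, at 329 to 474 FPKM.

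LinPos was set against LinNeg to ask how endothelial and blood-derived cells differed from the rest of the sorted cells. The leukocyte integrins were higher in LinPos, the nidogens, perlecan and most laminin chains lower. Of 38 tested members 12 were called higher (31.6%) and 22 lower (57.9%), with 25.3% and 25.8% of all 14043 tested genes called higher and lower and 51.1% in either direction (limma on log2(FPKM + 1), Benjamini-Hochberg adjusted p under 0.05). The median log2 difference was -0.73 over the members and 0 over all tested genes. All log2 differences below are on the log2(FPKM + 1) scale, which understates changes of low genes, and are given with their SE and the adjusted p of limma.

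Among alpha subunits 8 of 17 were called higher and 6 lower. Itgam (CD11b), which with Itgb2 forms the complement receptor of myeloid cells, stood at 80, 67, 159 and 84.5 FPKM in LinPos libraries, against 0.286, 0.314, 1.17 and 0.187 in LinNeg. Itgax (CD11c), of macrophages and dendritic cells, stood at 18.7, 22.6, 23.1 and 8.55 FPKM in LinPos, against 0.0727, 0.0306, 0.157 and 0.0121 in LinNeg. Neither gene's groups overlapped, and the log2 differences were 6.01 ± 0.26 (adjusted p = 1.5e-12) and 4.08 ± 0.21 (adjusted p = 8.7e-12). Itgal, the LFA-1 alpha subunit of lymphocytes, averaged 21.3 ± 11.1 FPKM in LinPos and 0.467 ± 0.173 in LinNeg (SD, n = 4 each, as for all means below except n = 3 in LinNegSca1Pos; log2 difference 3.74 ± 0.30, adjusted p = 3.9e-09). Itgae, which binds E-cadherin, was called higher too (2.37 ± 0.825 FPKM in LinPos and 0.0329 ± 0.0221 in LinNeg), which made 4 of 4 tested leukocyte alpha subunits. That count is in part set by the filter on low values, since Itgae, Itgal and Itgax reached 1 FPKM only in LinPos. Itga4 of the VCAM-1 receptor (3.36 ± 0.19), Itga6 of laminin receptors (3.12 ± 0.32), the collagen receptor Itga1 (2.22 ± 0.35) and Itga3 (0.53 ± 0.17) completed the higher group. Itga11, a receptor for fibrillar collagen on fibroblasts, ran the other way, at 1.09, 0.931, 0.551 and 0.573 FPKM in LinPos, against 30.2, 21.5, 22.6 and 20.5 in LinNeg, without overlap (log2 difference -3.78 ± 0.17, adjusted p = 1.9e-12). Itga7 (-2.18 ± 0.44), Itga8 (-1.81 ± 0.36), Itgav (-1.13 ± 0.17), Itga10 (-0.98 ± 0.28) and Itga9 (-0.66 ± 0.18) were called lower as well. Itga2 (-0.75 ± 0.31, adjusted p = 0.0522), Itga2b (-0.21 ± 0.23) and Itga5 (0.08 ± 0.45) were not called. In a fit of LinPos and LinNeg alone that blocked on the replicate number, Itga2 was called lower with the same difference (adjusted p = 0.00656). Itga5 split by set in both fractions, with 31.6, 26.2, 8.52 and 8.27 FPKM in LinPos and 35, 19.3, 9.48 and 7.29 in LinNeg.

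Among beta subunits 2 of 8 were called higher and 5 lower. Itgb2, the shared beta subunit of the leukocyte integrins, stood at 101, 71.8, 168 and 67 FPKM in LinPos, against 0.643, 0.436, 1.28 and 0.382 in LinNeg, without overlap (log2 difference 5.86 ± 0.26, adjusted p = 2.0e-12). Itgb7, partner of Itga4 and Itgae on lymphocytes, was also higher (log2 difference 1.35 ± 0.35), but its groups overlapped, with 37.2, 30.8, 20.7 and 9.97 FPKM in LinPos and 11.6, 12.3, 8.91 and 3.19 in LinNeg. Itgb3, partner of Itgav and Itga2b, stood at 4.2, 3.26, 2.07 and 0.662 FPKM in LinPos, against 12.1, 8.48, 8.52 and 5.83 in LinNeg. Itgb5, another partner of Itgav, stood at 23.2, 22.7, 10.6 and 13.5 FPKM in LinPos, against 51.7, 50.6, 47.3 and 30.5 in LinNeg. For both genes every LinPos library lay below every LinNeg library, with log2 differences of -1.54 ± 0.29 (adjusted p = 1.9e-04) and -1.36 ± 0.23 (adjusted p = 5.5e-05). Itgb8 (-1.20 ± 0.30) and Itgb4 (-0.70 ± 0.23) were called lower at means of at most 2.25 FPKM. Itgb6 was called lower too (-0.45 ± 0.11), at means of only 0.0102 FPKM in LinPos and 0.385 in LinNeg. It reached 1 FPKM only in Whole and was tested through that group. Itgb1, the most widely shared beta subunit, averaged 219 ± 22.8 FPKM in LinPos and 195 ± 21.7 in LinNeg and was not called (0.17 ± 0.15, adjusted p = 0.38).

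Among laminin chains 8 of 10 were called lower in LinPos. Lama2, the alpha chain of muscle basement membrane, stood at 5.76, 5.05, 3.03 and 2.64 FPKM in LinPos, against 139, 90.4, 55.5 and 65.4 in LinNeg. Lamc1, the common gamma chain, stood at 39.4, 31.9, 23 and 36.2 FPKM in LinPos, against 210.3, 128, 162 and 207 in LinNeg. Neither overlapped between the groups, and the log2 differences were -4.07 ± 0.26 and -2.40 ± 0.21 (adjusted p = 1.8e-10 and 1.9e-08). The beta chains Lamb1 (-2.38 ± 0.20), Lamb2 (-1.75 ± 0.23) and Lamb3 (-0.71 ± 0.13), with Lamc3 (-1.09 ± 0.20) and the vascular alpha chain Lama4 (-1.44 ± 0.35), were lower too. Lamb3 and Lamc3 were low, at means of 0.0928 and 0.117 FPKM in LinPos and 0.795 and 1.45 in LinNeg. Lama3 of epithelial laminin and Lama5, an alpha chain of mature vessels and epithelia, were called higher, by 0.83 ± 0.20 and 0.77 ± 0.26. Lama5 averaged 8.49 ± 3.96 FPKM in LinPos and 4.27 ± 0.856 in LinNeg. Nid1 stood at 46.9, 49.8, 29.4 and 45.7 FPKM in LinPos, against 474, 378, 329 and 415 in LinNeg, where it was the most abundant member. Its paralog Nid2 stood at 7.99, 7.58, 2.72 and 5.04 FPKM in LinPos, against 23, 19.2, 12.2 and 10.8 in LinNeg. The groups of both nidogens did not overlap, and the log2 differences were -3.20 ± 0.17 and -1.36 ± 0.27 (adjusted p = 2.3e-11 and 3.6e-04). Hspg2 (perlecan) stood at 30.2, 22, 7.9 and 19.7 FPKM in LinPos, against 57.9, 24.3, 32.7 and 28.8 in LinNeg, with overlap (-0.88 ± 0.34, adjusted p = 0.0366).

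Of the 31 calls that could be tested in each set alone, 28 held in set A and 28 in set B. The call of Hspg2 was lost without LinPos replicate 3 (adjusted p = 0.16), LinPos replicate 4 (0.0501), LinNeg replicate 1 (0.136) or LinNeg replicate 3 (0.0577), in set A alone (0.314) and under median-of-ratios scaling (0.0536). Lama5 was lost without LinPos replicate 1 (0.0835), LinPos replicate 2 (0.0581) or LinNeg replicate 3 (0.0572) and in set B alone (0.234), Itga3 without LinPos replicate 1 (0.0668) or 2 (0.0553) and in set B alone (0.252), Itgb4 without LinPos replicate 3 (0.0606) or 4 (0.0545) or LinNeg replicate 1 (0.0534) and in set A alone (0.432). Itga9 was lost in set A alone (0.0553) and Itgb6 in set B alone (0.0501). The endothelial and leukocyte marker sums above moved with these differences, as did 5 neutrophil markers, at 5132 to 58453 FPKM in LinPos and 56.1 to 1020.5 in LinNeg. Their part in the result was not tested.

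**Figure D2:**
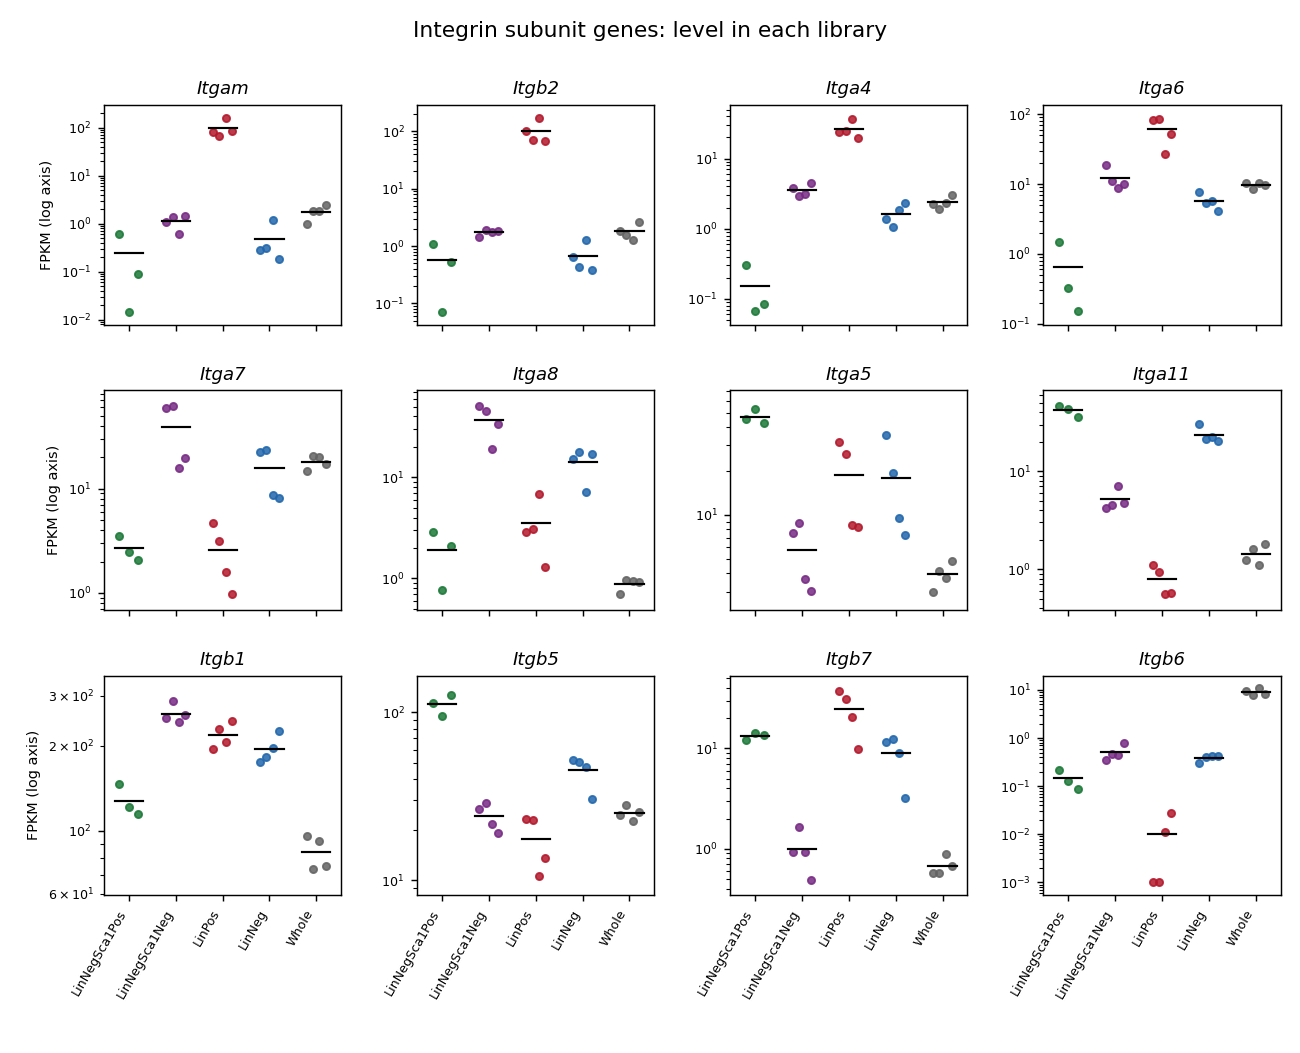
Level of 12 integrin subunit genes in each library (points, FPKM on a log axis) with the group mean (line), 3 LinNegSca1Pos and 4 libraries in every other group. Itgam and Itgb2 lie at 67.0 FPKM or more in every LinPos library and at 2.61 FPKM or less elsewhere, and Itgb6 lies below 1 FPKM in the 4 sorted fractions and at 7.79 to 10.8 FPKM in Whole.

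LinNegSca1Pos was set against LinNegSca1Neg to ask what the Sca1 gate divides within the lineage-negative cells. LinNegSca1Pos was lower in all 3 laminin-binding alpha subunits and higher in most laminin chains, in both nidogens and in perlecan. Of 38 tested members 17 were called higher (44.7%) and 16 lower (42.1%), against 22.4% and 32.1% of all tested genes (54.5% in either direction). The median log2 difference was -0.20 over the members and -0.16 over all tested genes (-0.07 after median-of-ratios scaling and -0.01 after quantile normalization).

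Of 17 alpha subunits 4 were called higher and 8 lower. Itga7, the laminin receptor subunit of muscle cells, stood at 3.52, 2.47 and 2.09 FPKM in LinNegSca1Pos, against 58.7, 61.6, 15.6 and 19.5 in LinNegSca1Neg. Itga6, a laminin receptor subunit of endothelial, Schwann and stem cells, stood at 1.47, 0.323 and 0.153 FPKM in LinNegSca1Pos, against 18.6, 11.2, 8.87 and 10.1 in LinNegSca1Neg. Itga8, which binds nephronectin and fibronectin through the RGD motif, stood at 2.85, 0.767 and 2.1 FPKM in LinNegSca1Pos, against 50.6, 44.8, 19 and 33.9 in LinNegSca1Neg. No LinNegSca1Pos library reached the lowest LinNegSca1Neg library in any of these, and the log2 differences were -3.20 ± 0.47, -3.03 ± 0.34 and -3.70 ± 0.39 (adjusted p = 1.8e-05, 8.3e-07 and 3.6e-07). Within set A and set B alone the Itga7 difference was -4.07 and -2.34. Itga1 (-2.56 ± 0.38), Itga4 (-1.98 ± 0.20), Itga3 (-1.55 ± 0.19), Itga10 (-1.55 ± 0.30) and Itgam (-0.79 ± 0.28) were called lower as well. Against the direction of most called alpha subunits, Itga5, the fibronectin receptor subunit, was higher, at 45.1, 53.3 and 42.6 FPKM in LinNegSca1Pos, against 7.48, 8.8, 3.63 and 3.01 in LinNegSca1Neg. Itga11 was higher too, at 46.6, 43.6 and 36 FPKM in LinNegSca1Pos, against 4.23, 4.56, 7.05 and 4.78 in LinNegSca1Neg. Neither overlapped between the groups (2.93 ± 0.49, adjusted p = 6.7e-05, and 2.82 ± 0.18, adjusted p = 7.4e-10). Itga2b, the platelet fibrinogen receptor subunit, averaged 3.6 ± 0.237 FPKM in LinNegSca1Pos and 0.962 ± 0.225 in LinNegSca1Neg and was called higher (log2 difference 1.24 ± 0.25), as was Itga9 (0.81 ± 0.20). The 6 markers of platelets and megakaryocytes summed to 3.55 to 11.5 FPKM in LinNegSca1Pos and 1.55 to 9.03 in LinNegSca1Neg. In each fraction 2 of them averaged 1 FPKM or more, while Gp6 was at the lowest listed value in all LinNegSca1Pos libraries, and Gp9 and Gp6 were in all LinNegSca1Neg libraries. Their part in the Itga2b difference was not tested. Itgav (-0.09 ± 0.19), Itga2, Itgae, Itgal and Itgax were not called.

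Of 8 beta subunits 3 were called higher and 5 lower. Itgb5 stood at 113, 94.7 and 127 FPKM in LinNegSca1Pos, against 26.5, 28.9, 21.6 and 19.1 in LinNegSca1Neg. Itgb7 stood at 12.1, 14.2 and 13.5 FPKM in LinNegSca1Pos, against 0.931, 1.66, 0.936 and 0.493 in LinNegSca1Neg. Itgb3 stood at 15.1, 8.34 and 12.9 FPKM in LinNegSca1Pos, against 2.84, 2.69, 1.35 and 1.74 in LinNegSca1Neg. All 3 were higher without overlap, by 2.17 ± 0.25, 2.86 ± 0.38 and 2.05 ± 0.31 (adjusted p = 8.1e-07, 5.6e-06 and 2.8e-05). Itgb7 was at a higher mean in LinNegSca1Pos, whose T and NK lymphocyte markers summed to 0.137 to 1.62 FPKM over 6 genes, than in LinNegSca1Neg, where they summed to 3.86 to 7.98. Of its alpha partners, Itga4 averaged 0.154 ± 0.134 FPKM in LinNegSca1Pos and 3.57 ± 0.711 in LinNegSca1Neg, and Itgae 0.0313 ± 0.028 and 0.154 ± 0.0522. The part of lymphocytes in the Itgb7 difference was not tested. Itgb1 was lower, at 147, 121 and 115 FPKM in LinNegSca1Pos, against 249.6, 287, 243 and 256 in LinNegSca1Neg (-1.02 ± 0.16, adjusted p = 3.7e-05). Itgb8 (-2.12 ± 0.33), Itgb4 (-1.73 ± 0.25) and Itgb2 (-0.85 ± 0.28) were called lower from means of at most 4.74 FPKM in LinNegSca1Neg. Itgb6 was called lower too (-0.40 ± 0.12), at means of only 0.145 FPKM in LinNegSca1Pos and 0.516 in LinNegSca1Neg.

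Among laminin chains 7 of 10 were called higher in LinNegSca1Pos. Lama4 stood at 93.6, 87.8 and 81.2 FPKM in LinNegSca1Pos, against 31.3, 29, 15.9 and 15.7 in LinNegSca1Neg. It was higher without overlap (1.95 ± 0.38, adjusted p = 3.0e-04). Lamb2 of neuromuscular junctions (1.64 ± 0.25), Lamb1 (1.41 ± 0.22), Lamb3 (1.31 ± 0.14), Lama2 (1.30 ± 0.28) and Lamc1 (0.92 ± 0.23) were higher too. Lamb3 was low, at means of 1.66 FPKM in LinNegSca1Pos and 0.0602 in LinNegSca1Neg. Outside LinNegSca1Pos it reached 1 FPKM only in LinNeg replicate 3 (1.03 FPKM). It therefore passed the filter on low values through LinNegSca1Pos, and the count of 7 is in part set by that filter. Lama5 ran against them, at 0.997, 0.192 and 0.166 FPKM in LinNegSca1Pos, against 12.7, 7.45, 7.16 and 9.25 in LinNegSca1Neg. The difference was -2.82 ± 0.28 (adjusted p = 1.6e-07), with Lama3 (-1.75 ± 0.22) and Lamc3 (-0.94 ± 0.22) also lower. Nid1 stood at 337, 331 and 240.2 FPKM in LinNegSca1Pos, against 67.1, 61.4, 78.5 and 71.5 in LinNegSca1Neg. Nid2 stood at 24.2, 32.3 and 20 FPKM in LinNegSca1Pos, against 7.46, 7.74, 4.55 and 4.77 in LinNegSca1Neg. Hspg2 stood at 76.5, 108 and 79.8 FPKM in LinNegSca1Pos, against 28.1, 13.4, 25.9 and 22.4 in LinNegSca1Neg. Each was higher without overlap, by 2.09 ± 0.19, 1.90 ± 0.30 and 1.96 ± 0.36 (adjusted p = 5.0e-08, 3.3e-05 and 1.9e-04).

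Of the 33 calls, 32 held in set A alone and 31 in set B alone. The call of Itgam was lost without LinNegSca1Pos replicate 2 (adjusted p = 0.101) or 3 (0.0834) or LinNegSca1Neg replicate 2 (0.0556) or 4 (0.0629), in set B alone (0.0888) and under quantile normalization (0.22). Itgb2 was lost without LinNegSca1Pos replicate 2 (0.11), in set B alone (0.0517) and under quantile normalization (0.186), and Itgb6 in set A alone (0.0968) and under quantile normalization (0.963). Satellite cell, Schwann cell, tenocyte and pericyte marker sums were lower in LinNegSca1Pos, as given above, and mesenchymal progenitor markers higher. Myofibre genes summed to 53.5 to 255 FPKM in LinNegSca1Pos and 2680.1 to 19802 in LinNegSca1Neg. Neutrophil markers summed to 3.48 to 46.7 and 118 to 426 FPKM in the same order, and leukocyte markers to 6.19 to 88.1 and 39.9 to 105, with overlap. Their part in these differences was not tested.

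**Figure D3:**
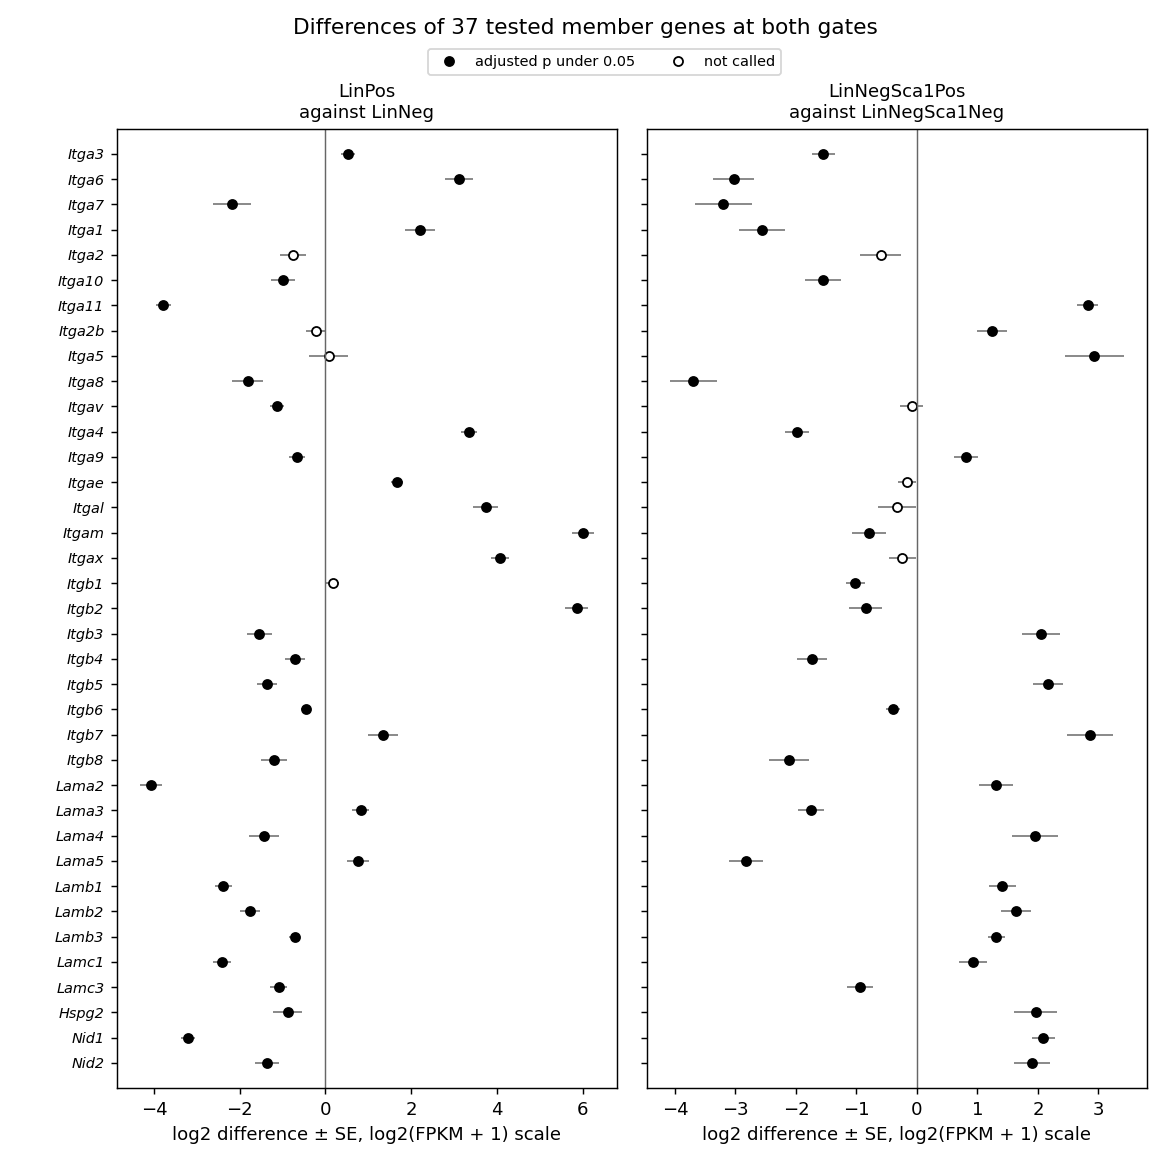
Log2 difference with its SE for 37 tested members, LinPos against LinNeg on the left and LinNegSca1Pos against LinNegSca1Neg on the right, with filled points for limma adjusted p under 0.05 and open points for the rest. At the lineage gate Itgam (6.01) and Itgb2 (5.86) lie farthest right and Lama2 (-4.07) farthest left, and at the Sca1 gate Itga5 (2.93) and Itga8 (-3.70) mark the ends.

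Each Sca1 fraction was also set against LinPos. These comparisons share the LinPos libraries with each other and with the first one, so their values are given side by side. In LinNegSca1Pos against LinPos 18 members were called higher (47.4%) and 12 lower (31.6%), against 29.0% and 30.9% of all tested genes (59.9% in either direction), with medians of 0.31 over the members and -0.01 over all genes. In LinNegSca1Neg against LinPos 15 were higher (39.5%) and 10 lower (26.3%), against 31.5% and 23.0% of all tested genes (54.5% in either direction), with medians of 0.23 and 0.13, the second -0.01 after median-of-ratios scaling and 0.08 after quantile normalization. Of the matrix genes, 11 of 13 tested laminin, nidogen and perlecan genes were higher in LinNegSca1Pos and 2, Lama3 and Lama5, lower, while 7 of 13 were higher in LinNegSca1Neg and none was called lower. Lamb3, among the 11, passed the filter on low values through LinNegSca1Pos.

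The leukocyte subunits were lower in both Sca1 fractions. Itgae, Itgal and Itgax among them passed the filter on low values through LinPos alone. Itgam stood at 0.614, 0.0144 and 0.0914 FPKM in LinNegSca1Pos and 1.07, 1.37, 0.6 and 1.46 in LinNegSca1Neg, all below every LinPos library. Itgb2 stood at 1.1, 0.0724 and 0.534 FPKM in LinNegSca1Pos and 1.43, 1.91, 1.79 and 1.81 in LinNegSca1Neg. Against LinPos the log2 differences of Itgam were -6.26 ± 0.28 and -5.47 ± 0.26 (adjusted p = 2.5e-12 and 5.6e-12) and those of Itgb2 -5.99 ± 0.28 and -5.14 ± 0.26 (adjusted p = 4.4e-12 and 1.3e-11). Itgax averaged 0.0298 ± 0.0499 FPKM in LinNegSca1Pos and 0.216 ± 0.0661 in LinNegSca1Neg, with differences of -4.14 ± 0.22 and -3.90 ± 0.21 from LinPos. Itgal averaged 0.301 ± 0.173 and 0.632 ± 0.154 FPKM in the same order, with differences of -3.91 ± 0.32 and -3.58 ± 0.30. Itgae (-1.67 ± 0.15 and -1.51 ± 0.14) and Itga4 (-4.53 ± 0.20 and -2.56 ± 0.19) were called lower in both too.

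Of the remaining receptors, Itga6, at 83, 85.1, 27.1 and 52.1 FPKM in LinPos, differed by -5.20 ± 0.34 in LinNegSca1Pos (adjusted p = 3.1e-10) and -2.17 ± 0.32 in LinNegSca1Neg (adjusted p = 1.1e-05). Itga1, at 41, 36.7, 10 and 19.5 FPKM in LinPos, differed by -3.69 ± 0.38 and -1.13 ± 0.35. Itga11 was higher in both (4.60 ± 0.18 and 1.78 ± 0.17), without overlap with LinPos. Itga7 and Itga8 were called higher in LinNegSca1Neg (3.34 ± 0.44 and 3.12 ± 0.36), whereas in LinNegSca1Pos their differences were 0.14 ± 0.47 and -0.57 ± 0.39 and not called. Itgb5 (2.67 ± 0.25, adjusted p = 3.0e-08) and Itgb3 (1.97 ± 0.31, adjusted p = 2.8e-05) were called higher in LinNegSca1Pos, and in LinNegSca1Neg their values were 0.49 ± 0.23 and -0.08 ± 0.29, not called. Itga2 was not called in LinNegSca1Neg either (0.50 ± 0.31, adjusted p = 0.189). With the replicate block, in a fit of LinNegSca1Neg and LinPos only, Itgb5 and Itga2 were called higher with the same differences (adjusted p = 0.0295 and 0.0459). Itgb7 was lower in LinNegSca1Neg (-3.56 ± 0.35, adjusted p = 7.6e-08) and not called in LinNegSca1Pos (-0.70 ± 0.38, adjusted p = 0.121). Itga5 was higher in LinNegSca1Pos (1.51 ± 0.49) and lower in LinNegSca1Neg (-1.42 ± 0.45), and the first value was 0.68 in set A alone and 2.35 in set B alone. The Itga5 call in LinNegSca1Neg was lost without LinPos replicate 1 (adjusted p = 0.0547).

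Among the matrix genes Lama2, at 86.3, 73 and 65 FPKM in LinNegSca1Pos and 43.3, 29, 24 and 25.6 in LinNegSca1Neg, lay above every LinPos library in both fractions. Its differences from LinPos were 3.93 ± 0.28 and 2.63 ± 0.26 (adjusted p = 9.0e-10 and 7.4e-08). Lamb1, the beta chain of most tissues, stood at 125, 107 and 116 FPKM in LinNegSca1Pos, 45.7, 44.7, 43.2 and 39.3 in LinNegSca1Neg and 16.6, 17.6, 7.61 and 19.6 in LinPos. Its differences from LinPos were 2.91 ± 0.22 and 1.51 ± 0.20 (adjusted p = 1.4e-09 and 3.2e-06), again with no overlap. Lamc1, at 144, 179 and 96 FPKM in LinNegSca1Pos and 71.4, 54.9, 84.3 and 77.3 in LinNegSca1Neg, differed by 2.05 ± 0.23 and 1.13 ± 0.21. Nid1 differed by 2.80 ± 0.19 and 0.71 ± 0.17 (adjusted p = 4.2e-10 and 0.00206), and the second value was 0.40 in set A alone, where it was not called (adjusted p = 0.109). Nid2 (2.01 ± 0.30) and Hspg2 (2.21 ± 0.36) were higher in LinNegSca1Pos, while in LinNegSca1Neg their values were 0.11 ± 0.27 and 0.25 ± 0.34, not called. Lama5 and Lama3 were lower in LinNegSca1Pos (-2.66 ± 0.28 and -1.63 ± 0.22). Lama4 was higher in LinNegSca1Pos by 1.82 ± 0.38, and by 1.05 in set A alone. In LinNegSca1Pos the calls of Itga9 (adjusted p = 0.0616 without LinPos replicate 3, 0.0751 without LinNegSca1Pos replicate 1, 0.0665 without LinNegSca1Pos replicate 3 and 0.172 in set A alone) and of Lamc3 (0.0507 without LinPos replicate 4 and 0.0929 without LinNegSca1Pos replicate 2) were lost by leaving out 1 library. In LinNegSca1Neg the call of Lamb2 was lost in set A alone (0.37) and under median-of-ratios scaling (0.0608).

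**Figure D4:**
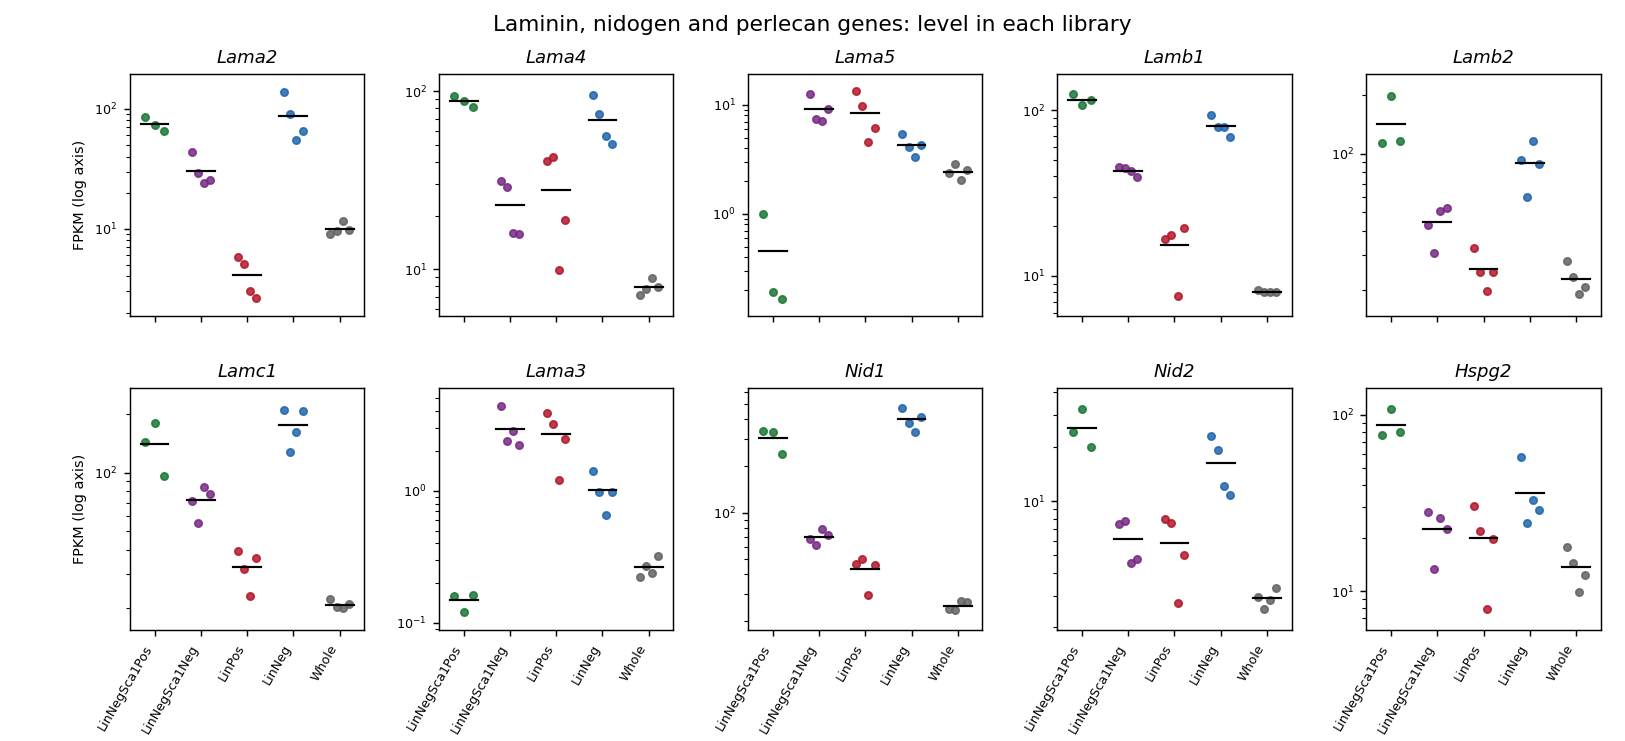
Level of 10 laminin, nidogen and perlecan genes in each library (points, FPKM on a log axis) with the group mean (line). Nid1 and Lamc1 lie highest in LinNegSca1Pos and LinNeg, Lama5 lies below 1 FPKM in LinNegSca1Pos and at 7.16 to 12.7 FPKM in LinNegSca1Neg, and Lamb1 varies only between 7.95 and 8.23 FPKM in Whole.

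LinPos and LinNeg were each set against Whole, which they share. In LinPos 24 members were higher (63.2%) and 5 lower (13.2%), against 48.8% and 22.9% of all tested genes (71.8% in either direction). The LinPos and LinNeg libraries held less myofibre RNA than Whole by the marker sums above, and the part of this in the differences was not tested. In LinNeg 26 were higher (68.4%) and 3 lower (7.89%), against 47.5% and 21.8% (69.3% in either direction). Over all tested genes the medians were already 0.45 and 0.43, and they were 0.04 and -0.01 after median-of-ratios scaling and 0.04 and 0.05 after quantile normalization. The share of higher genes among all those called was 68.0% and 68.6%, 52.1% and 48.2% after median-of-ratios scaling and 52.3% and 52.0% after quantile normalization. Member medians of 0.77 and 1.12 are to be read against those shifts. Under median-of-ratios scaling 18 members were higher and 8 lower in LinPos, and 23 higher and 7 lower in LinNeg, and under quantile normalization 17 and 8, and 22 and 6.

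Itgb2, Itgam, Itgal, Itgax and Itgb7 had the 5 largest differences of the members in LinPos, while Itgae, also called higher, was at 1.62 ± 0.14. Itgal, Itgax and Itgae were tested through their LinPos values alone. Itgam stood at 1, 1.84, 1.79 and 2.4 FPKM in Whole, and its log2 difference in LinPos was 5.10 ± 0.26 (adjusted p = 6.0e-12). Itgb2, at 1.82, 1.55, 1.27 and 2.61 FPKM in Whole, differed by 5.12 ± 0.26 (adjusted p = 6.1e-12). Itgal (4.03 ± 0.30), Itgax (3.90 ± 0.21) and Itgb7 (3.80 ± 0.35) were higher in LinPos as well, from Whole means of 0.199 ± 0.0539, 0.21 ± 0.104 and 0.674 ± 0.147 FPKM. In LinNeg the differences of Itgam and Itgb2 were -0.91 ± 0.26 and -0.75 ± 0.26, both called lower. The Itgam call was lost in set B alone (adjusted p = 0.0516) and the Itgb2 call without Whole replicate 4 (0.0624), without LinNeg replicate 4 (0.051) and in set B alone (0.117).

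Itgb6, partner of Itgav in an epithelial activator of latent TGF-beta, was the 1 member highest in Whole. It was listed at 0.001, 0.001, 0.0111 and 0.0277 FPKM in LinPos and 0.304, 0.396, 0.425 and 0.416 in LinNeg, against 9.39, 7.79, 10.8 and 8.41 in Whole. The log2 differences were -3.31 ± 0.11 and -2.86 ± 0.11 (adjusted p = 4.0e-14 and 4.8e-13). Itgb6 reached 1 FPKM only in Whole and passed the filter on low values through that group. Its calls here are in part set by that filter. Epithelial markers in Whole summed to 0.006 to 0.487 FPKM over 6 genes, with Krt14 at the lowest listed value in all 4 libraries, and the myofibre genes were high in Whole, as given above. Their part in the Itgb6 level was not tested. Itga7, which myofibres also use, stood at 14.8, 20.5, 20 and 17.3 FPKM in Whole and was lower in LinPos (-2.52 ± 0.44, adjusted p = 4.6e-05) but not called in LinNeg (-0.34 ± 0.44).

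The alpha subunits with the largest differences in LinNeg were Itga11, Itga8 and Itga9, which binds tenascin-C and VCAM-1. Itga8 stood at 15, 17.9, 7.11 and 16.8 FPKM in LinNeg, against 0.696, 0.954, 0.935 and 0.921 in Whole. Itga9 stood at 12, 10.2, 9.77 and 8.25 FPKM in LinNeg, against 1.63, 1.98, 1.21 and 1.96 in Whole. Itga11, given above for LinNeg, stood at 1.25, 1.61, 1.1 and 1.79 FPKM in Whole. These genes did not overlap between LinNeg and Whole, and the log2 differences were 3.33 ± 0.17, 2.95 ± 0.36 and 2.04 ± 0.18 (adjusted p = 8.4e-12, 9.2e-07 and 1.9e-08). Itgb3 (2.57 ± 0.29) and Itgb7 (2.45 ± 0.35) were higher in LinNeg too, from 0.469, 0.541, 0.648 and 0.744 and 0.574, 0.567, 0.883 and 0.671 FPKM in Whole. Itgb1, at 95.7, 73.1, 92.1 and 75 FPKM in Whole, was higher in LinPos and LinNeg by 1.38 ± 0.15 and 1.21 ± 0.15, and by 0.77 and 0.55 under median-of-ratios scaling.

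All 13 tested matrix members were called higher in LinNeg than in Whole, where 47.5% of all tested genes were, although Hspg2, Lama3, Lama5 and Lamb3 were not called under every other scaling. Lamb1 stood at 93.4, 79, 79.6 and 69.1 FPKM in LinNeg, against 8.23, 8, 7.95 and 7.99 in Whole. Nid1 stood at 23.7, 23.4, 27 and 26.4 FPKM in Whole, Lamc1 at 22.2, 20.2, 20 and 21.1 and Lama2 at 8.96, 9.66, 11.5 and 9.76, all below every LinNeg library given above. The log2 differences in LinNeg were 3.16 ± 0.20 for Lamb1, 3.93 ± 0.17 for Nid1, 3.00 ± 0.21 for Lamc1 and 2.93 ± 0.26 for Lama2 (adjusted p = 1.5e-10, 1.8e-12, 7.5e-10 and 1.3e-08). Nid2 (2.09 ± 0.27), Hspg2 (1.29 ± 0.34), Lama4 (2.93 ± 0.35) and Lamb2 (1.90 ± 0.23) were higher as well. Hspg2 was not called under median-of-ratios scaling (0.66, adjusted p = 0.1), nor was Lama5 (0.11, adjusted p = 0.728), whose call was also lost without any 1 Whole library (adjusted p = 0.0512 to 0.102), without LinNeg replicate 1 (0.119), 2 (0.0678) or 4 (0.0733) and in set B alone (0.0734).

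In LinPos 7 of 13 tested matrix members (53.8%) were higher than in Whole and 1, Lama2, lower (7.69%), against 48.8% and 22.9% of all tested genes. Lama4 stood at 40.4, 42.8, 9.96 and 18.8 FPKM in LinPos, against 7.17, 7.7, 8.9 and 7.95 in Whole, and Lama5 at 13.4, 9.79, 4.55 and 6.17, against 2.37, 2.85, 2.04 and 2.5. Both were higher without overlap (1.49 ± 0.35, adjusted p = 9.0e-04, and 1.37 ± 0.26, adjusted p = 1.1e-04). The Lama4 difference was 2.26 in set A alone and 0.72 in set B alone, and that of Lama5 1.86 and 0.88. Lama2 was lower, with a difference of -1.14 ± 0.26 (adjusted p = 6.6e-04). Nid1 (0.73 ± 0.17) and Nid2 (0.73 ± 0.27) were called higher, but Nid1 not under median-of-ratios scaling (0.13, adjusted p = 0.525) or quantile normalization (0.53, adjusted p = 0.0578). Nid2 was not called under either (adjusted p = 0.396 and 0.726), without Whole replicate 2 (0.0551), LinPos replicate 1 (0.085) or LinPos replicate 2 (0.0797), or in set B alone (0.239). The calls of Lamb1 and Lamc1 were also lost under both scalings, that of Lamc1 without LinPos replicate 1 (0.0617), and those of both in set B alone (0.0586 and 0.0985).

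Other calls in LinPos against Whole also rested on few libraries. Itga11 was called lower (-0.45 ± 0.17), and this was lost without Whole replicate 2 (adjusted p = 0.0579) or 4 (0.0722), without LinPos replicate 3 (0.0657) or 4 (0.0643) and in set A alone (0.173). Itgb5 was called lower (-0.56 ± 0.23), lost without Whole replicate 1 (0.0528), 2 (0.0814) or 4 (0.0599), without LinPos replicate 3 (0.144) or 4 (0.096) and in set A alone (0.471). Itga2 was higher by 0.76 ± 0.31, lost without Whole replicate 1 (0.0729), 2 (0.0689) or 3 (0.0626), without LinPos replicate 1 (0.118) or 2 (0.115) and in set B alone (0.356). Itga3 (0.54 ± 0.17), Itgb3 (1.03 ± 0.29) and Itga2b (0.79 ± 0.23) were not called in set B alone (0.296, 0.1 and 0.134), and Itga3 was -0.01 under quantile normalization. Of the 26 calls that could be tested in each set alone, 24 held in set A and 19 in set B, and of the 29 in LinNeg against Whole 29 and 26. In LinNeg the call of Itgb5 (0.79 ± 0.23) was lost under median-of-ratios scaling (0.534), and those of Itga10, Lama3 and Lamb3 under quantile normalization (0.0583, 0.157 and 0.277).

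Shares of each family's summed FPKM describe its make-up per unit length. Itgb1 held 48.1% ± 4.69 of beta subunit FPKM in LinNegSca1Pos and 87% ± 1.92 in LinNegSca1Neg (mean ± SD over 3 and 4 libraries), where Itgb5 held 41.8% ± 4.59 and 8.05% ± 1.07. Itgb2 held 27.2% ± 10 in LinPos and 0.26% ± 0.154 in LinNeg, and Itgb6 7.38% ± 0.661 in Whole. Laminin-binding alpha subunits held 2.78% ± 1.05 of alpha subunit FPKM in LinNegSca1Pos, 34.2% ± 6.44 in LinNegSca1Neg, 22.3% ± 8.77 in LinPos, 17.9% ± 3.66 in LinNeg and 55.2% ± 2.5 in Whole. Collagen-binding and RGD-binding subunits held 35.5% ± 2.33 and 53.7% ± 3.46 in LinNegSca1Pos. Leukocyte alpha subunits held 46.6% ± 13.6 in LinPos, and at most 4.23% ± 1.12 on average elsewhere. Among laminin alpha chains Lama2 and Lama4 together made nearly all of the FPKM in LinNegSca1Pos, with 45.8% ± 1.69 and 53.9% ± 1.93. In LinPos Lama2 held 10.6% ± 3.74, Lama4 62.4% ± 7.09 and Lama5 20.5% ± 3.39. Lamc1 held on average 92.8% to 98.5% of gamma chain FPKM and Nid1 88.5% to 96.1% of nidogen FPKM in the 5 groups.

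**Figure D5:**
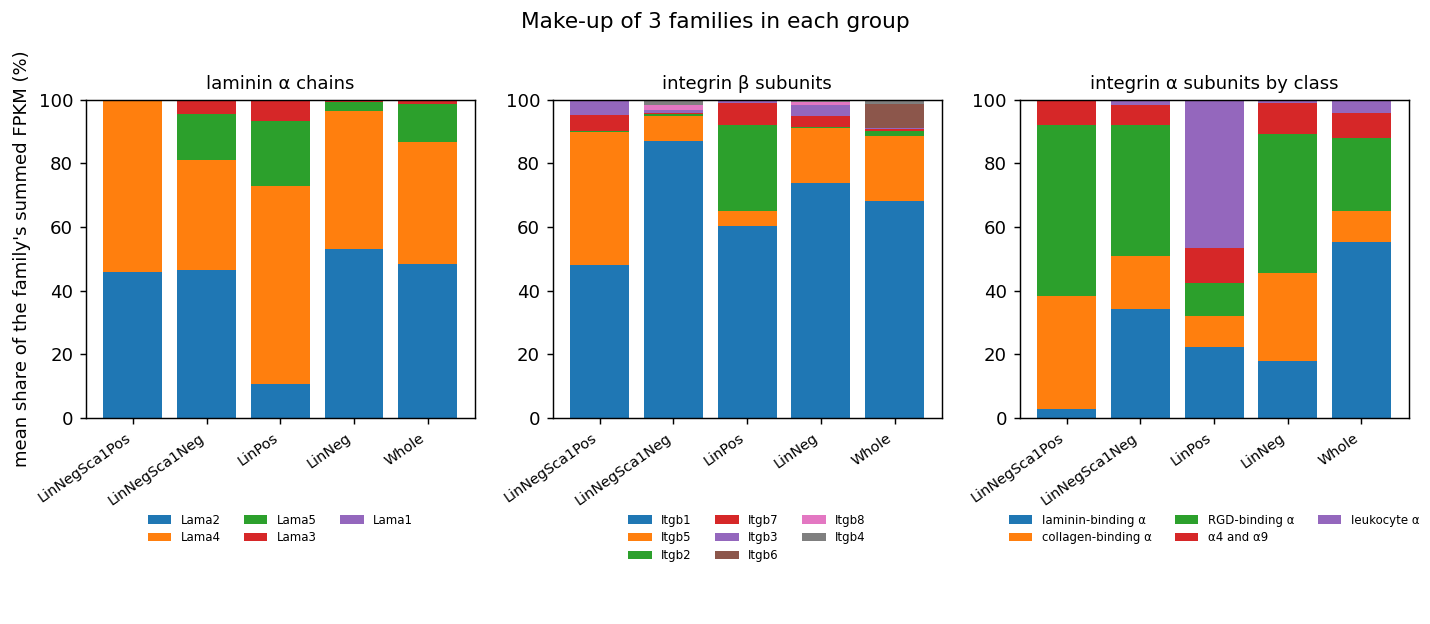
Mean share of the summed FPKM of laminin alpha chains, integrin beta subunits and integrin alpha subunits by class (stacked bars, percent) in each group. Lama2 falls to 10.6% in LinPos, Itgb5 reaches 41.8% in LinNegSca1Pos, and laminin-binding alpha subunits run between 2.78% in LinNegSca1Pos and 55.2% in Whole.

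Other genes of the basement membrane and of integrin function were taken as lists. Beside each count stand the shares called higher and lower and the median log2 difference, first of the list and then of all tested genes. Of 14 basement membrane partners none was called higher and 10 lower in LinPos against LinNeg (0% and 71.4%, against 25.3% and 25.8% of all tested genes, with medians of -1.53 and 0). With the replicate block Agrn (agrin) was called higher there (log2 difference 0.72, adjusted p = 0.00519). In LinNegSca1Pos against LinNegSca1Neg 8 were higher and 2 lower (57.1% and 14.3%, against 22.4% and 32.1% of all tested genes, with medians of 0.80 and -0.16). In the first comparison Smoc2, a secreted calcium-binding protein, differed by -4.39 ± 0.20, Fbln1 (fibulin-1) by -3.82 ± 0.21 and Col4a5 of collagen IV by -3.20 ± 0.30. In the second Smoc2 differed by 3.16 ± 0.22, Fbln1 by 2.85 ± 0.22 and Col15a1 by 1.38 ± 0.33, and Npnt, the nephronectin ligand of Itga8, by -1.29 ± 0.16. Npnt averaged 0.34 ± 0.168 FPKM in LinNegSca1Pos and 2.29 ± 0.485 in LinNegSca1Neg, low beside Itga8 itself. The major collagen IV chains Col4a1 and Col4a2 were not called in LinPos against LinNeg (-0.10 ± 0.24 and 0.26 ± 0.25).

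Against LinPos 11 of these 14 partners were higher and 2 lower in LinNegSca1Pos (78.6% and 14.3%, against 29.0% and 30.9% of all tested genes, with medians of 1.67 and -0.01), with Smoc2 at 5.18 ± 0.22, Fbln1 at 4.78 ± 0.22 and Col4a5 at 2.96 ± 0.32. In LinNegSca1Neg 9 were higher and 2 lower (64.3% and 14.3%, against 31.5% and 23.0% of all tested genes, with medians of 1.12 and 0.13), with Col18a1 at 3.19 ± 0.17, Smoc2 at 2.02 ± 0.20 and Fbln1 at 1.93 ± 0.21. With the replicate block 8 were higher and none lower, since the calls of Col4a1 (adjusted p = 0.111), Col4a2 (0.0692) and Col15a1 (0.0633) were lost. Against Whole 6 were higher and 1 lower in LinPos (42.9% and 7.14%, against 48.8% and 22.9% of all tested genes, with medians of 0.14 and 0.45), and 12 higher and none lower in LinNeg (85.7% and 0%, against 47.5% and 21.8% of all tested genes, with medians of 2.04 and 0.43). There Smoc2 (-2.22 ± 0.20), Col4a2 (2.17 ± 0.25) and Col4a1 (2.08 ± 0.24) differed most in LinPos, and Col4a5 (3.94 ± 0.30), Fbln1 (3.70 ± 0.21) and Sparc (3.54 ± 0.31), which binds collagen IV, in LinNeg.

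Of 6 laminin receptors that are not integrins 2 were higher and 4 lower in LinPos against LinNeg (33.3% and 66.7%, against 25.3% and 25.8% of all tested genes, with medians of -1.16 and 0). The syndecans, proteoglycans of the cell surface, split: Sdc2 differed by -4.21 ± 0.20 and Sdc3 by 2.80 ± 0.26. Dag1 (dystroglycan), the receptor that joins laminin alpha 2 to the dystrophin complex, differed by -1.84 ± 0.18, and averaged 22 ± 5.11 FPKM in LinPos and 80.6 ± 16.4 in LinNeg. In LinNegSca1Pos against LinNegSca1Neg 1 was higher and 4 lower (16.7% and 66.7%, against 22.4% and 32.1% of all tested genes, with medians of -1.17 and -0.16). Bcam, a receptor for laminin alpha 5, averaged 3.74 ± 3.32 FPKM in LinNegSca1Pos and 48.9 ± 13.7 in LinNegSca1Neg and differed by -3.58 ± 0.37, beside -2.82 ± 0.28 for Lama5. Dag1 differed by -1.90 ± 0.20 and Sdc4 by -1.53 ± 0.24. Against LinPos 4 were higher and 2 lower in LinNegSca1Pos (66.7% and 33.3%, against 29.0% and 30.9% of all tested genes, with medians of 0.82 and -0.01), among them Sdc2 at 4.19 ± 0.22, Bcam at -3.68 ± 0.37 and Sdc3 at -2.58 ± 0.28. In LinNegSca1Neg 4 were higher and 1 lower (66.7% and 16.7%, against 31.5% and 23.0% of all tested genes, with medians of 2.01 and 0.13), among them Sdc2 at 3.17 ± 0.20, Dag1 at 2.77 ± 0.18 and Sdc4 at 2.29 ± 0.22. Against Whole 3 were higher and 2 lower in LinPos (50% and 33.3%, against 48.8% and 22.9% of all tested genes, with medians of 0.80 and 0.45), among them Sdc3 at 2.59 ± 0.26, Bcam at 2.08 ± 0.34 and Sdc4 at 1.37 ± 0.22. In LinNeg 5 were higher and none lower (83.3% and 0%, against 47.5% and 21.8% of all tested genes, with medians of 1.11 and 0.43), among them Sdc2 at 3.39 ± 0.20, Sdc4 at 2.70 ± 0.22 and Sdc1 at 1.23 ± 0.32.

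Of 17 tested integrin adaptors, which couple the cytoplasmic tails to actin, 6 were higher and 2 lower in LinPos against LinNeg (35.3% and 11.8%, against 25.3% and 25.8% of all tested genes, with medians of 0.35 and 0). Fermt3 (kindlin-3), the form of blood cells, differed by 3.94 ± 0.19, Parvb by 3.57 ± 0.24 and Parvg by 3.35 ± 0.27, while the widely expressed Fermt2 was not called (-0.39 ± 0.17). With the replicate block 7 were higher and 5 lower, Fermt2 among the lower (adjusted p = 0.0334). Itgb1bp2 (melusin), a muscle protein that binds the integrin beta 1 tail, averaged 0.198 ± 0.0152 FPKM in LinPos, 2.75 ± 1.68 in LinNeg and 135 ± 20.2 in Whole. In LinNegSca1Pos against LinNegSca1Neg 3 adaptors were higher and 7 lower (17.6% and 41.2%, against 22.4% and 32.1% of all tested genes, with medians of -0.32 and -0.16). Itgb1bp2 was at -2.95 ± 0.34, Lims2 at 2.04 ± 0.28 and Vcl (vinculin) at -1.83 ± 0.20. Against LinPos 2 were higher and 6 lower in LinNegSca1Pos (11.8% and 35.3%, against 29.0% and 30.9% of all tested genes, with medians of -0.17 and -0.01), with Fermt3 at -4.03 ± 0.20, Parvg at -3.71 ± 0.30 and Parvb at -3.60 ± 0.26. In LinNegSca1Neg 5 were higher and 7 lower (29.4% and 41.2%, against 31.5% and 23.0% of all tested genes, with medians of 0.08 and 0.13), with Fermt3 at -3.64 ± 0.19, Itgb1bp2 at 3.13 ± 0.31, Parvb at -2.90 ± 0.24 and Parvg at -2.90 ± 0.27. Against Whole 12 were higher and 2 lower in LinPos (70.6% and 11.8%, against 48.8% and 22.9% of all tested genes, with medians of 0.95 and 0.45), with Itgb1bp2 at -6.81 ± 0.31, Fermt3 at 3.48 ± 0.19 and Parvg at 3.48 ± 0.27. In LinNeg 6 were higher and 4 lower (35.3% and 23.5%, against 47.5% and 21.8% of all tested genes, with medians of 0.14 and 0.43), with Itgb1bp2 at -5.26 ± 0.31, Parvb at -3.93 ± 0.24 and Parva at 2.39 ± 0.24. Fermt1 was not tested.

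Of 11 tested integrin ligands outside the basement membrane 1 was higher and 7 lower in LinPos against LinNeg (9.09% and 63.6%, against 25.3% and 25.8% of all tested genes, with medians of -1.37 and 0). The 1 higher was Icam2, a leukocyte integrin ligand of endothelium, at 4.46 ± 0.34, and with the replicate block Icam1 was called higher too (0.43, adjusted p = 0.0123), while Tnc (tenascin-C) differed by -3.12 ± 0.65 and Ltbp1 by -3.06 ± 0.13. In LinNegSca1Pos against LinNegSca1Neg 2 were higher and 5 lower (18.2% and 45.5%, against 22.4% and 32.1% of all tested genes, with medians of -0.55 and -0.16). Icam1 differed by 3.21 ± 0.34, Spp1 (osteopontin) by -3.57 ± 0.61 and Cdh1 (E-cadherin), the ligand of Itgae with Itgb7, by -2.84 ± 0.23. Fn1 (fibronectin), ligand of Itga5, averaged 849.5 ± 170.2 FPKM in LinNegSca1Pos and 248 ± 15.5 in LinNegSca1Neg (1.75 ± 0.26), in the same direction as Itga5. Against LinPos 6 were higher and 1 lower in LinNegSca1Pos (54.5% and 9.09%, against 29.0% and 30.9% of all tested genes, with medians of 1.09 and -0.01), with Icam2 at -4.34 ± 0.37, Vtn at 2.90 ± 0.46 and Ltbp1 at 2.76 ± 0.14. In LinNegSca1Neg 9 were higher and 2 lower (81.8% and 18.2%, against 31.5% and 23.0% of all tested genes, with medians of 2.20 and 0.13), with Tnc at 4.55 ± 0.65, Icam2 at -3.79 ± 0.34 and Vcam1 at 2.81 ± 0.20. Against Whole 7 were higher and 1 lower in LinPos (63.6% and 9.09%, against 48.8% and 22.9% of all tested genes, with medians of 0.55 and 0.45), with Icam1 at 3.38 ± 0.32, Thbs1 at 3.04 ± 0.38 and Icam2 at 2.51 ± 0.34. In LinNeg 8 were higher and 1 lower (72.7% and 9.09%, against 47.5% and 21.8% of all tested genes, with medians of 1.92 and 0.43), with Fn1 at 4.65 ± 0.24, Thbs1 at 3.80 ± 0.38 and Ltbp1 at 3.49 ± 0.13. Madcam1 was not tested.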

How the data were processed

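Poly(A) RNA of sorted cells from mouse hindlimb muscle was made into stranded libraries, per the labels' protocols. The deposited values are FPKM per gene, as the file headers name them. The submitters' processing notes name bcl2fastq, TopHat2, Bowtie2, Cufflinks and mm10, with no versions or roles. Sequencing depth is not given in the sources used here, so no counting error could be set. The authors' table holds words in place of numbers (a status such as LOWDATA) for 311 genes in every library and for 14 in some, and its lowest listed FPKM is 0.001. Another 4 value columns of it could be tied to no sample and were left out.

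Groups came from the labels. The 14043 genes that reached 1 FPKM in 3 or more of the 19 libraries were fitted as log2(FPKM + 1) with limma 3.58.1 in R 4.3.3, with 1 term for each of 5 groups, a variance trend and 14 residual degrees of freedom. The 6 comparisons were each adjusted by Benjamini and Hochberg over all tested genes, with a threshold of 0.05. Tables and figures were made with Python 3.11.15, pandas 2.3.3, numpy 2.4.6 and matplotlib 3.10.9. The fit was tested on simulated data. Alternatives were other pseudocounts, filters and scalings, sample weights, set A or set B alone, a term for set B, fits of 2 groups, a replicate block, and each library left out.

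The members and gene lists were chosen with earlier results of these data known. The values of 1 member are not reported here, although it is counted. Every other member is named at least once, and of each list up to 3 called genes with the largest difference per comparison are named with values. Npnt, Agrn, Fermt2, Col4a1, Col4a2 and Fn1 were named in addition after their values were seen. Libraries with the same number deviated together from their group means, with correlations of 0.44 to 0.70 between LinPos and LinNeg and of 0.36 to 0.67 between LinNegSca1Neg and LinPos (4 pairs each), so the numbers were taken to pair these libraries by the data, not by the labels, and the division into sets A and B alone could give this. In the other comparisons the lowest correlation was at most 0.01.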

Additional observations from a re-analysis of the deposited data

Results flagged for a closer look

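In 3 of 118 sets of 4 libraries (1 member gene in 1 group, mean at least 1 FPKM) 1 library lay far from the other 3, and chance gives about 1 in 20. Itga1, a collagen receptor subunit, was 2.26 FPKM in Whole replicate 4, against 3.06 to 3.2 in the other Whole libraries. Itga2, another collagen receptor subunit, was 3.41 FPKM in LinNegSca1Neg replicate 1, against 1.34 to 1.62 in the others of that group. Itgb8, a partner of Itgav, was 4.56 FPKM in LinNeg replicate 1, against 1.05 to 1.61 in the other LinNeg libraries.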

How the results depend on the processing

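Of 3834 repeats of the member calls, 3700 kept their direction and their side of the threshold, 133 fell short of it and 1 turned, Itga3 in LinPos against Whole (-0.01 under quantile normalization). Counts of called members moved by more than 1.5 times as follows, and the cause was not tested. In LinPos against LinNeg 7 members were higher in set B alone, against 12 with all libraries. In LinNegSca1Pos against LinNegSca1Neg 10 were lower with a filter of 5 FPKM, against 16, where fewer members were tested. In LinPos against Whole 14 were higher in set B alone, against 24, and the 5 lower became 8 under median-of-ratios scaling, 8 under quantile normalization, 3 in set A alone and 3 without Whole replicate 2, Whole replicate 4, LinPos replicate 3 or LinPos replicate 4. In LinNeg against Whole the 3 lower became 1 with a pseudocount of 5, 7 and 6 under these scalings and 5 with sample weights. Fits of set A or B alone also tested fewer members. Leaving out 1 library gave 10 to 12 higher and 20 to 23 lower in LinPos against LinNeg, 17 and 14 to 16 in LinNegSca1Pos against LinNegSca1Neg, 17 to 18 and 12 to 13 in LinNegSca1Pos against LinPos, 15 to 16 and 9 to 10 in LinNegSca1Neg against LinPos, 21 to 25 and 3 to 5 in LinPos against Whole, and 25 to 26 and 2 to 4 in LinNeg against Whole. In fits of 2 groups with a replicate block, Itgb6 (adjusted p = 0.108) and Lamc1 (0.0639) were no longer called in LinNegSca1Pos against LinNegSca1Neg, nor was Itga9 (0.149) in LinNegSca1Pos against LinPos, and no other member's call was lost. Called only with this block were Itga2 (0.00656) in LinPos against LinNeg, Itga2 (0.0459) and Itgb5 (0.0295) in LinNegSca1Neg against LinPos, Itgb7 (0.0188) in LinNegSca1Pos against LinPos, and Itga6 (0.0086) and Itgal (0.046) in LinNeg against Whole. With a block in the fit of all groups no member call was lost. In LinNegSca1Pos against LinNegSca1Neg and against LinPos, which are not paired, the libraries share only a number, and 1 of 3 and 0 of 3 correlated best with their own. LinPos against Whole and LinNeg against Whole are not paired either, with 1 of 4 best with its own number in each. The value of 1 fragment varied between libraries, and FPKM without depth gives no limit for low members such as Itgad and Lama1.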
